A study of Mus musculus with 24 samples.

Results

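The 40 genes described here, chosen by name, encode proteins of DNA replication and mitosis, and all 40 were found among the 54532 genes counted in each library. They fall into 15 genes of S phase, when DNA is copied, and 25 genes of G2 and mitosis, when chromosomes are condensed and separated. RNA came from the left gastrocnemius, a calf muscle, of wild-type C57/BL6 mice, as 24 libraries in 6 groups of 4. In every group the muscle was injected 2 times, 5 days apart, with 20 µl, and the label gives a time of 24 h. Female and male controls were sedentary and received saline of pH 7.2 ± 0.1. Female and male sedentary pain groups received injections of pH 5.0 ± 0.1 and, directly before the second one, 6 min of electrically evoked contraction of that muscle. Female and male active pain groups had running wheels for 8 weeks and then the same acid and contraction. No control was stimulated, so acid and contraction cannot be told apart, and running was compared only between the pain groups. The labels number the replicates without saying that each is a separate animal, so p-values measure the spread between these samples.

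A cell that starts to divide passes through a fixed order of steps. E2F transcription factors and cyclin E open S phase, the MCM ring unwinds the DNA, and enzymes such as ribonucleotide reductase and thymidylate synthase supply the building blocks. Cyclin A and cyclin B with the kinase Cdk1 then drive the cell into mitosis, where Aurora and Polo kinases, kinesin motors and the survivin complex build the spindle and divide the chromosomes. Adult muscle fibres have left the cell cycle for good. The cells of muscle that can still divide are its satellite cells, fibroblasts, endothelial cells and the leukocytes that enter it, and MCM proteins and Pcna are also made by cells that are licensed or repairing DNA without dividing.

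The promoters of 4 genes that recur below are shown, with short motifs known from cell cycle genes: Mcm5 and Rrm2 of S phase, and Cdk1 and Top2a of mitosis. The sequences are RefSeq promoters of GRCm38.p6, from 250 bases before to 50 bases after the annotated start, given 5′ to 3′ on the strand of the gene. Capitals mark every match, on either strand, to 3 short motifs: TTTGAA, the core of the cell cycle homology region that is read by the complexes repressing and activating mitotic genes; CCAAT, the box bound by NF-Y; and TTNGCGC, the core of E2F sites. Matches on the other strand appear as the reverse complement, and matches that overlap are written as 1 run.
Mcm5 (chr8:75109259-75109558, plus strand): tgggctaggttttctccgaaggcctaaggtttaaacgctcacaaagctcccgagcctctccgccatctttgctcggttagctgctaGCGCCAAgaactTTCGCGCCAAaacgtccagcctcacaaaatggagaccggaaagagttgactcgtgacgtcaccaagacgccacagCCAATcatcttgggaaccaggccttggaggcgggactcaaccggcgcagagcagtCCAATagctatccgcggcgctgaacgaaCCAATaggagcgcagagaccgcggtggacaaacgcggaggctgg
Rrm2 (chr12:24708004-24708303, plus strand): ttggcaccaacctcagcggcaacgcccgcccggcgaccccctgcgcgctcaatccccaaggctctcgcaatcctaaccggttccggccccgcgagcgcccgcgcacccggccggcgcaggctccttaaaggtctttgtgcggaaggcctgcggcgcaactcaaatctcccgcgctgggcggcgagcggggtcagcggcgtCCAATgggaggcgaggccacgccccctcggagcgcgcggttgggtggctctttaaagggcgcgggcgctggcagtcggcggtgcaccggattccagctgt
Cdk1 (chr10:69352863-69353162, minus strand): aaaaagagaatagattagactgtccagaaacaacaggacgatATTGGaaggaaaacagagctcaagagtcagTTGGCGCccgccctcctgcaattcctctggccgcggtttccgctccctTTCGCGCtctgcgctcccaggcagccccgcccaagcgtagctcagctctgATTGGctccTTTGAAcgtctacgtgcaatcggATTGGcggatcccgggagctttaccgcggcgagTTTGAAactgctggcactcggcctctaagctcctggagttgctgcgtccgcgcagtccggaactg
Top2a (chr11:99024140-99024439, minus strand): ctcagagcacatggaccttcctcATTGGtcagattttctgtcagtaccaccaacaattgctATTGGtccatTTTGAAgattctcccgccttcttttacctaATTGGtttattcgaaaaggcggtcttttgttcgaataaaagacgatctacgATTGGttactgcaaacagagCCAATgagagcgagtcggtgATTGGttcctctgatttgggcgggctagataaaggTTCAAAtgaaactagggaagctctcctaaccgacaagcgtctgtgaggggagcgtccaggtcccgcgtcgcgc

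RefSeq windows were matched to 33 of the 40 genes by symbol. TTTGAA was found in 17 of the 33 (51.5%), against 20.2% of all 27025 genes with a window of the same length. It was present in 2 of 6 helicase genes, in 0 of 5 genes of DNA precursors and the clamp and in 0 of 2 E2F and cyclin E genes. It was present in 2 of 3 genes of the cyclin A, cyclin B and Cdk1 group, in both Mki67 and Top2a, in 4 of 6 mitotic kinase genes, in 3 of 3 genes of protein destruction and in 4 of 6 spindle genes. CCAAT was found in 81.8% of the 33 genes, against 41.1% of all genes, and TTNGCGC in 21.2%, against 7.24%. CCAAT stood in 6 of 6 helicase genes, 3 of 3 of the cyclin A, cyclin B and Cdk1 group and 5 of 6 spindle genes, in both Mki67 and Top2a, in 5 of 6 mitotic kinase genes and in 3 of 3 genes of protein destruction. It stood in 3 of 5 genes of precursors and the clamp and in 0 of 2 E2F and cyclin E genes. The E2F core stood in 4 of 6 helicase genes, in 2 of 3 genes of the cyclin A, cyclin B and Cdk1 group and in 1 of Mki67 and Top2a, and in 0 of the other groups, precursors and the E2F and cyclin E genes included. Such a match is a description of letters and not of binding.

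Library totals ran from 17612139 to 34039699 reads, and levels below are CPM, reads scaled to a common library size with TMM factors (trimmed mean of M-values). Markers of muscle fibres, among them skeletal actin and fast myosins, summed to between 87426 and 206395 CPM in every library, so the labelled tissue was borne out. In every group replicates 1 and 2 carry library numbers of 20 or lower in the names of the deposited data and replicates 3 and 4 of 25 or higher, so a result from a pair of replicates is also one from a range of library numbers, whose meaning the labels do not give. Replicates 3 and 4 of female sedentary pain stood apart. They held the lowest fibre sums, 101864 and 87426 CPM against 131298 to 202055 CPM in female controls. Their 14 macrophage and monocyte markers summed to 4548 and 6702 CPM, against 113 to 252 CPM in female controls and 553 and 976 CPM in replicates 1 and 2. Their 10 T and natural killer cell markers summed to 89.5 and 150.4 CPM, against 0.631 to 3.94 CPM. Female control replicates 3 and 4 stood apart in another way, with sums of 6 adipocyte markers of 5448 and 2630 CPM against 424 and 270.4 CPM in replicates 1 and 2, and 5 of the 6 were lower in female sedentary pain (median -2.87), against 13.9% of all genes. The part of fat in the comparisons was not tested. In whole muscle, more cells of a type and more RNA per cell cannot be told apart.

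In pain-free muscle the members spanned a wide range of levels. Per kilobase of the longest transcript, and averaged over both sexes' controls, Pcna, the sliding clamp of DNA polymerases, was highest at 10.1 CPM per kb. It was followed by Rrm1, the large subunit of ribonucleotide reductase, at 7.16 CPM per kb, and by the spindle pole kinase Aurka at 6.15 CPM per kb. Lowest were Bub1, a checkpoint kinase, at 0.0085 CPM per kb and Cenpf, a kinetochore protein, at 0.00717 CPM per kb. Bub1 had 0 reads in 7 libraries, which allows levels of up to 0.0943 to 0.130 CPM there by a limit of 3 reads per library. These limits, like all counting intervals given here, cover counting error only. Mki67, the proliferation marker Ki-67, stood at 0.0532 CPM per kb and Top2a, the topoisomerase that untangles sister chromosomes, at 0.0677 CPM per kb. Most genes of S phase stood above most genes of mitosis in this order, with Aurka, Tpx2, Ube2c and Cdca3 among the mitotic genes that ranked above Mcm5, E2f1 and Rrm2.

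Control muscle of males and females differed in 2 of the 37 members tested, both higher in males, against 1.54% of all 15103 genes tested that were higher in males. These were Aurka and its binding partner Tpx2, which carries the kinase to spindle microtubules. Aurka stood at 13.9, 16.5, 14.2 and 14 CPM in replicates 1 to 4 of male controls and at 9.27, 10.8, 7.73 and 7.46 CPM in female controls. The sexes did not overlap, and the difference was 0.73 ± 0.14 on the log2 scale (SE, n = 4 per group, edgeR quasi-likelihood test, adjusted p = 0.00564). Tpx2 stood at 7.33, 7.06, 8.51 and 5.94 CPM in male controls against 4.29, 2.90, 2.81 and 2.81 CPM in female controls. That difference was 1.17 ± 0.27 (adjusted p = 0.0177), again without overlap. The call of Tpx2 was lost without female control replicate 3 or 4 or male control replicate 3 (edgeR, adjusted p of 0.0553 to 0.0784), and that of Aurka was kept without any 1 of the 24 libraries. No other member passed in this comparison. In all, 2 members were higher in males without overlap, against 13% of all genes, and 1 was lower, Mcm6, without passing, against 9.3%. With only replicates 1 and 2 of each group no member passed with edgeR. On GRCm38, Aurka lies at chr2:172356190-172370535 and Tpx2 at chr2:152847964-152895321.

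In females most of the cell cycle genes that could be tested were higher in sedentary pain than in controls. Of the 36 members tested, 29 were higher than in female controls at an adjusted p under 0.05 and none was lower, against 19.6% of all 14511 genes tested that were higher. At an unadjusted p under 0.05 there were 31, against 47.6% of all genes in either direction. The median change over those tested was 2.17 on the log2 scale, against -0.02 over all genes. The median was 2.91 over the 21 tested genes of G2 and mitosis, of which 19 rose, and 1.03 over the 15 genes of S phase, of which 10 rose. With 1 surrogate variable, a hidden factor estimated from the data, as a further term in the fit, 1 of 36 members passed, against 0.42% of all genes. The 7 members tested that did not pass were Mcm2, Cdc45, Rrm1, Tk1, Ccne2, Aurka and Bub1b. Of the 36, 11 passed the filter on low counts only through the sedentary pain libraries and so had to be higher there: Ccne1, Ccna2, Ccnb2, Cdk1, Foxm1, Plk1, Aurkb, Birc5, Cdc20, Kif23 and Nusap1. For them the direction, the size and the adjusted p given below are a description and no support for a change. The same holds for the counts and medians over the 36 and over the genes of S phase and of G2 and mitosis. All of the 11 but Ccne1 are genes of G2 and mitosis, so the higher median there rests partly on them. Of the other 25 members tested, 18 passed.

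**Figure D1:**
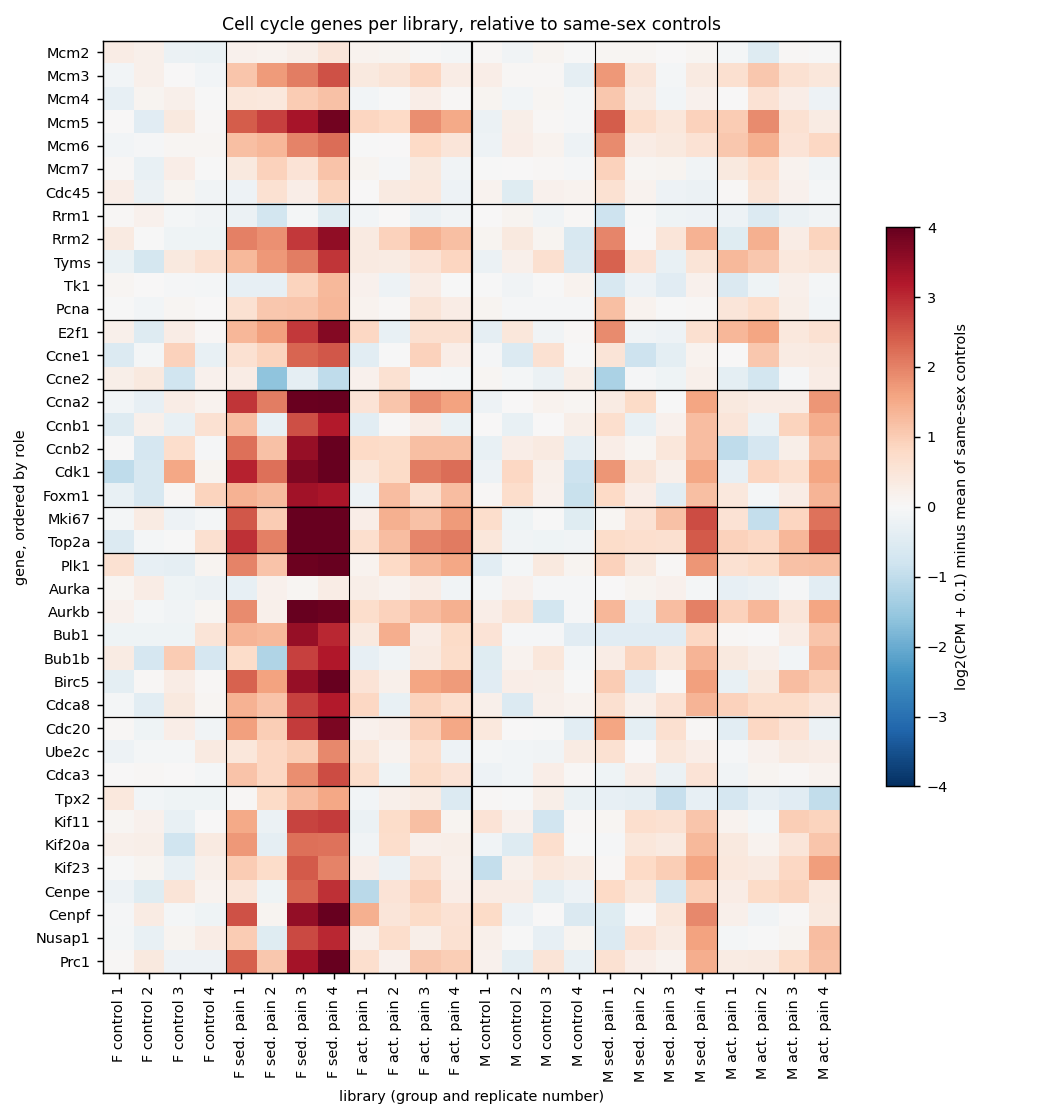
Level of each of the 40 genes (rows, by role) in each of the 24 libraries (columns), as log2(CPM + 0.1) less the average of that sex's controls; red is above and blue below. The columns of female sedentary pain replicates 3 and 4 are red in nearly all rows, while Mcm2, Rrm1, Ccne2 and Aurka stay pale or blue in them.

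The MCM ring, with Cdc45 as the factor that makes it an active helicase, did not rise as a unit. Mcm5 changed most. It stood at 1.04, 0.715, 1.37 and 1.07 CPM in replicates 1 to 4 of female controls and at 5.97, 7.30, 11.1 and 16 CPM in female sedentary pain. All 4 pain libraries lay above all controls, and the change was 3.24 ± 0.37 (SE, n = 4 per group, adjusted p = 0.00225). Mcm3 changed by 1.95 ± 0.27 (adjusted p = 0.00261) and Mcm6 by 1.76 ± 0.26 (adjusted p = 0.00261). Smaller rises were measured for Mcm4, 0.79 ± 0.20 (adjusted p = 0.0145), and for Mcm7, 0.75 ± 0.19 (adjusted p = 0.0151). Mcm2, although a subunit of the same ring, stood at 13.1, 12.3, 9.02 and 8.74 CPM in controls and at 12, 11.8, 12.4 and 14.9 CPM in sedentary pain. Its groups overlapped, with a change of 0.23 ± 0.16 (adjusted p = 0.262), and Cdc45 changed by 0.42 ± 0.25 (adjusted p = 0.197). Reads of Mcm7 could be shared with Ap4m1 and Cops6 on the opposite strand, and those of Cdc45 with Ufd1, because the use of strand in counting is not stated.

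Among the genes of DNA precursors, the 2 subunits of ribonucleotide reductase parted. Rrm2, the small subunit made in S phase, stood at 0.780, 0.589, 0.508 and 0.519 CPM in female controls and at 2.72, 2.33, 4.76 and 8.02 CPM in sedentary pain. It rose by 2.88 ± 0.42 (adjusted p = 0.00261), with no overlap. Rrm1, the large and more stable subunit, stood at 40.2, 43.3, 36.9 and 34.9 CPM in controls and at 32.8, 23.0, 36.8 and 27.9 CPM in sedentary pain. Its change of -0.38 ± 0.14 did not pass (adjusted p = 0.0589), and replicate 3 lay within the controls' range. Tyms, thymidylate synthase, rose by 2.15 ± 0.41 (adjusted p = 0.00446), and the salvage enzyme Tk1 changed by 0.55 ± 0.33 without passing (adjusted p = 0.195). Pcna was even in controls, at 16.3, 15.2, 17.4 and 16.4 CPM, and stood at 25, 34.4, 34.9 and 40.7 CPM in sedentary pain. That rise of 1.03 ± 0.15 (adjusted p = 0.00261) came without overlap. Tyms and Pcna have processed copies in the genome (Tyms-ps, Pcna-ps1, Pcna-ps2) whose reads may be split or shared.

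At the entry to S phase, E2f1, the activating factor that drives replication genes, stood at 1.17, 0.673, 1.25 and 1.04 CPM in female controls and at 2.68, 3.39, 7.84 and 13.9 CPM in sedentary pain. It rose by 2.73 ± 0.50 (adjusted p = 0.00369). Of the cyclins E, partners of Cdk2, Ccne1 was tested only through the sedentary pain libraries and was higher by 1.90 ± 0.56 (adjusted p = 0.0253). Ccne2 stood at 4.37, 4.96, 2.11 and 4.25 CPM in controls and at 4.57, 1.17, 2.92 and 1.80 CPM in sedentary pain, and its change of -0.59 ± 0.39 did not pass (adjusted p = 0.244). Ccne2 overlaps Ints8 on the opposite strand.

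**Figure D2:**
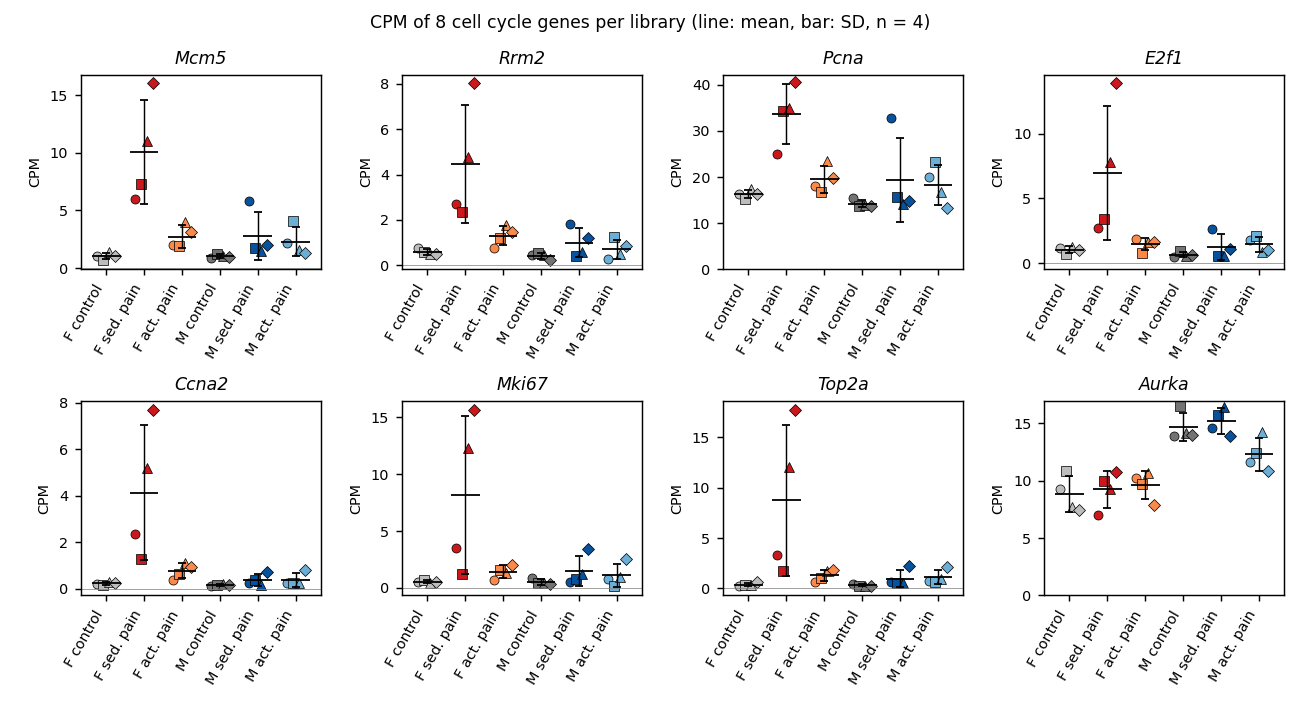
CPM of 8 genes in each library, by group (F female, M male, sed. sedentary, act. active; circle, square, triangle and diamond for replicates 1 to 4), with the mean as a line and the SD as a bar (n = 4). In Mcm5, Rrm2, Pcna, E2f1, Ccna2, Mki67 and Top2a the female sedentary pain libraries lie above the female controls. Aurka is separated by sex in controls and not by pain.

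The cyclins A and B, Cdk1 and the factor Foxm1, which drives genes of G2 and mitosis, had low levels in controls, and all 4 that were tested passed the filter only through the sedentary pain libraries. Ccna2 stood at 0.217, 0.168, 0.312 and 0.275 CPM in female controls and at 2.34, 1.28, 5.19 and 7.70 CPM in sedentary pain, a difference of 4.04 ± 0.57 (adjusted p = 0.00261). Cdk1 stood at 0.0433, 0.0841, 0.742 and 0.214 CPM in controls and at 2.34, 1.23, 3.76 and 9.78 CPM in sedentary pain, a difference of 3.93 ± 0.85 (adjusted p = 0.00709). The pain libraries of both genes lay above all controls, although control replicate 3 was high for Cdk1. Ccnb2 was higher by 3.81 ± 0.70 (adjusted p = 0.00398) and Foxm1 by 2.91 ± 0.66 (adjusted p = 0.00881). Ccnb1, the main partner of Cdk1 in mitosis, did not pass the filter. It stood at 0.0866, 0.210, 0.117 and 0.306 CPM in controls and at 0.529, 0.117, 1.49 and 2.30 CPM in sedentary pain, so that replicate 2 lay at the level of the controls. Ccna2 overlaps Exosc9 on the opposite strand, and both cyclins B have copies named as pseudogenes (Ccnb1-ps, Ccnb2-ps). Foxm1 overlaps Tex52 on its own strand. Among other members, opposite-strand overlaps are annotated for Tk1 (Afmid), Mki67 (Gm45240), Cdc20 (Elovl1), Kif20a (Cdc23), Nusap1 (Oip5) and Prc1 (Rccd1), and the list is not complete.

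Mki67 (chr7:135689784-135716361) and Top2a (chr11:98992943-99024189) are common markers of dividing cells. Mki67 stood at 0.520, 0.715, 0.468 and 0.519 CPM in female controls and at 3.52, 1.23, 12.3 and 15.7 CPM in sedentary pain, a rise of 3.86 ± 0.69 (adjusted p = 0.00354). Top2a stood at 0.217, 0.336, 0.351 and 0.611 CPM in controls and at 3.36, 1.75, 12.1 and 17.8 CPM in sedentary pain, a rise of 4.47 ± 0.72 (adjusted p = 0.00285), the largest of the members tested. In both genes all 4 pain libraries lay above the controls, with replicate 2 nearest to them and replicates 3 and 4 far above.

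Of the mitotic kinases and their partners, Cdca8, a subunit of the chromosomal passenger complex, rose by 2.58 ± 0.50 (adjusted p = 0.00482). Plk1, Aurkb and Birc5 were tested only through the sedentary pain libraries. Plk1 was higher by 4.32 ± 0.83 (adjusted p = 0.00459) and Aurkb, the kinase of that complex, by 3.86 ± 0.77 (adjusted p = 0.00527). Birc5, survivin, which anchors that complex, stood at 0.130, 0.210, 0.273 and 0.214 CPM in female controls and at 1.44, 0.817, 3.31 and 12.2 CPM in sedentary pain. Its difference was 4.37 ± 0.84 (adjusted p = 0.00458), and replicate 4 held most of it. Aurka was the exception in this group. It stood at 6.99, 9.92, 9.30 and 10.8 CPM in sedentary pain, within the range of the controls in 3 of the 4 libraries, and changed by 0.05 ± 0.17 (adjusted p = 0.836). TTTGAA is present in the promoter windows of Aurka and of 3 other genes in this group. The checkpoint gene Bub1b changed by 2.20 ± 0.81 without passing (adjusted p = 0.0541), and Bub1 did not pass the filter, at 0 to 0.0611 CPM in controls and 0.175 to 1.17 CPM in sedentary pain.

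For protein destruction at mitosis, Cdc20, the activator of the anaphase-promoting complex, was tested only through the sedentary pain libraries and was higher by 3.07 ± 0.63 (adjusted p = 0.00566). Cdca3, which helps to remove the Cdk1 inhibitor Wee1, stood at 0.823, 0.841, 0.820 and 0.764 CPM in female controls and at 1.93, 1.52, 3.18 and 5.47 CPM in sedentary pain. It rose by 1.88 ± 0.38 (adjusted p = 0.00565). Ube2c, the ubiquitin-conjugating enzyme of the same complex, stood at 1.78, 1.93, 1.95 and 2.69 CPM in controls and at 2.87, 3.74, 4.15 and 8.16 CPM in sedentary pain, a rise of 1.16 ± 0.32 (adjusted p = 0.0200). That call was lost without sedentary pain replicate 4 or without control replicate 1 or 2 (edgeR, adjusted p of 0.0535 to 0.0583). Ube2c overlaps Tnnc2, the fast muscle troponin C, on the opposite strand, so some of its reads in muscle may not be its own.

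All 6 tested genes of the spindle and of cytokinesis were higher in female sedentary pain, against 19.6% of all genes. Kif23 and Nusap1 were tested only through those libraries, which leaves 4 of 4 others. Prc1, which bundles the midzone microtubules, stood at 0.347, 0.463, 0.273 and 0.275 CPM in controls and at 2.19, 0.817, 4.21 and 8.23 CPM in sedentary pain, a rise of 3.49 ± 0.60 (adjusted p = 0.00316). Tpx2 stood at 3.25, 5.43, 7.58 and 9.46 CPM in sedentary pain, where replicate 1 lay within the controls, and rose by 0.99 ± 0.32 (adjusted p = 0.0334). That call was lost without sedentary pain replicate 3 or 4 or without control replicate 2, 3 or 4 (edgeR, adjusted p of 0.0595 to 0.105). The kinesins Kif11, Kif20a and Kif23 and the microtubule binder Nusap1 were higher by 1.81 to 2.39 on the log2 scale. Cenpe, a kinetochore motor, and Cenpf did not pass the filter: Cenpe stood at 0.126 to 0.351 CPM in controls and at 0.175 to 2.30 CPM in sedentary pain, and Cenpf at 0.0306 to 0.0841 CPM and 0.0584 to 2.86 CPM.

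The rise in females was uneven across replicates. Replicates 3 and 4 of female sedentary pain were the 2 highest of all 24 libraries for 33 of the 40 members. Replicates 1 to 4 lay above all 4 female controls in 30, 27, 36 and 37 of the 40 members, against 25.9%, 38%, 34.9% and 40.4% of all genes tested in females. Groups did not overlap for 24 of the 36 members tested, all higher, against 15.3% of all genes. The 36 include the 11 members tested only through the sedentary pain libraries, Cdk1 among them. This count and those of members passing below are therefore a description. Without replicate 4, 24 members passed, against 16.9% of all genes, and without replicate 3, 29, against 33%. With only replicates 1 and 2 of each female group, a choice made after seeing the data, 2 of 33 members passed, against 1.67% of all genes, and the changes were 2.90 ± 0.34 for Mcm5 and 4.70 ± 0.66 for Cdk1 (edgeR, adjusted p = 0.0478 for both). The macrophage, T cell and natural killer cell markers given above rose in the same libraries: in female sedentary pain all 14 macrophage markers tested passed as higher, against 19.6% of all genes. Of 5 T and natural killer cell markers tested, 3 (Trac, Cd4 and Klrk1) passed the filter only through the sedentary pain libraries and so had to be higher, and both others passed as higher. Their part in the rise of the cell cycle genes was not tested. Of 9 markers of satellite cells and myoblasts, 8 were tested and 1 was higher, with summed levels of 77.7 to 107 CPM in sedentary pain and 57.8 to 107 CPM in controls. The 7 markers of fibroblasts and fibro-adipogenic progenitors summed to 479 to 1428 CPM in sedentary pain, highest in replicate 3, and to 676 to 867 CPM in controls. The 7 endothelial markers summed to 172 to 193 CPM and to 217 to 245 CPM. Of these markers, 1 of 7 and 2 of 7 passed, against 33.5% of all genes in either direction. Their part was not tested either.

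By their median change, the members stood nearer to the controls in female active pain than in female sedentary pain. Against female controls, 0 of 36 members passed with edgeR, against 0.0% of all genes tested, and 4 had an unadjusted p under 0.05, against 7.03% of all genes. With DESeq2, 1 member passed, against 0.861% of all genes. The median change was 0.52. Mcm5 stood at 1.96, 1.87, 4 and 3.10 CPM, above all controls, with a change of 1.38 ± 0.36 (adjusted p = 0.565). Ccna2 stood at 0.392, 0.635, 1.12 and 0.942 CPM, also above all controls, with a change of 1.65 ± 0.57 (adjusted p = 0.601). Top2a stood at 0.637, 0.988, 1.69 and 1.85 CPM, with a change of 1.74 ± 0.70 (adjusted p = 0.640). A total of 7 members were higher without overlap, against 3.60% of all genes. Of the 36, 4 passed the filter on low counts only with the help of the active pain libraries (Ccnb2, Plk1, Aurkb and Nusap1). The counts and the median in this paragraph are therefore a description.

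Active against sedentary pain in females gave 21 of 36 members lower in the active animals, against 9.41% of all genes tested, and none higher, against 2.51%. At an unadjusted p under 0.05 there were 30, against 32.3% of all genes. The median change was -1.69, against 0.01 over all genes. The 11 members tested only through the sedentary pain libraries had to be lower here, so the count and the median are a description; 7 of the 21, Ccna2 and Birc5 among them, are of these 11, and 14 are of the other 25. This comparison shares its sedentary pain libraries with the comparison of sedentary pain and control. Mcm5 differed by -1.86 ± 0.35, Rrm2 by -1.74 ± 0.39, Pcna by -0.77 ± 0.15, E2f1 by -2.22 ± 0.48 and Ccna2 by -2.39 ± 0.51 (adjusted p = 0.0328 for each). Pcna stood at 18.0, 16.8, 23.4 and 19.9 CPM in active pain, all below the 4 sedentary pain libraries. Mki67 stood at 0.686, 1.62, 1.35 and 2.04 CPM, a difference of -2.49 ± 0.63 (adjusted p = 0.0333), and its active libraries overlapped replicate 2 of sedentary pain. Top2a differed by -2.73 ± 0.65 and Prc1 by -2.58 ± 0.56 (adjusted p = 0.0328 for both), Birc5 by -2.93 ± 0.75 (adjusted p = 0.0340) and Cdca3 by -1.33 ± 0.37 (adjusted p = 0.0417). Cdk1, with -2.45 ± 0.77, Tpx2, with -1.01 ± 0.32 (adjusted p = 0.0562 for both), and Ube2c, with -0.88 ± 0.32 (adjusted p = 0.0855), did not pass. Under the alternatives Cdk1 passed in 9 of 25, Tpx2 in 4 of 26 and Ube2c in 3 of 26.

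The count of 21 changed with single libraries, as did the count over all genes. It was 0 without sedentary pain replicate 3 or 4 and 0 without active pain replicate 1, 2 or 4, while 0 to 3 genes in all passed in these fits. The median change of the members was -1.63, -1.75 and -1.82 without active pain replicates 1, 2 and 4, and -1.55 and -1.34 without sedentary pain replicates 3 and 4. The count was 32 without sedentary pain replicate 1, against 29% of all genes. Cdca3 lost its call in 14 of 25 alternatives, without any 1 of 10 of the 12 libraries among them. The count was also 0 when the controls were left out of the fit, when 1 surrogate variable was added and with only replicates 1 and 2. In active pain the 14 macrophage markers summed to 301 to 608 CPM, against 553 to 6702 CPM in sedentary pain, and 12 of the 14 passed as lower, against 9.41% of all genes. The part of these cells in the difference was not tested.

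**Figure D3:**
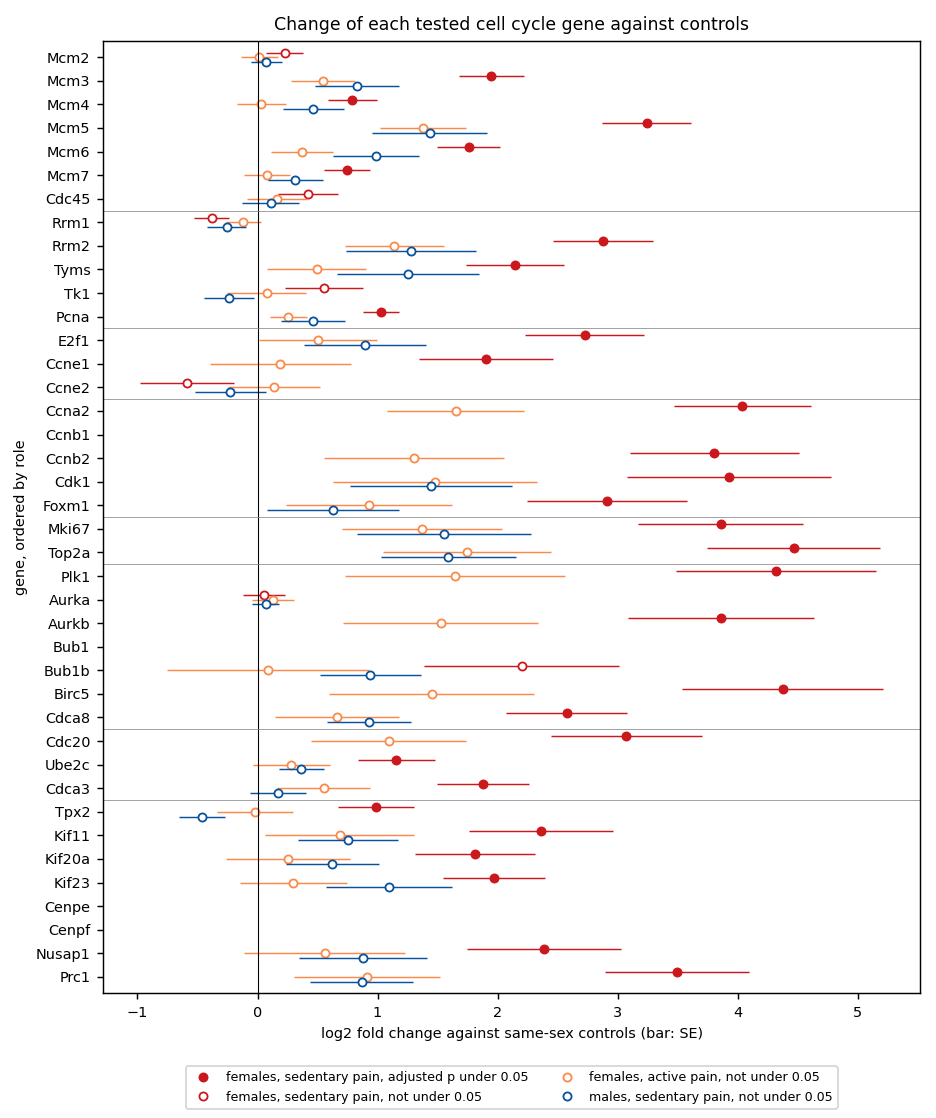
Log2 change of each tested gene against same-sex controls with its SE, for female sedentary pain (red), female active pain (orange) and male sedentary pain (blue); filled points have an adjusted p under 0.05, and genes without a point did not pass the filter. Red points lie farthest to the right in most rows, from 4.47 for Top2a down to -0.59 for Ccne2, and no orange or blue point is filled.

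In males no member passed. In sedentary pain, 0 of 29 members tested passed with edgeR, against 0.0% of all 14404 genes tested, and 8 had an unadjusted p under 0.05, against 8.84% of all genes; the smallest adjusted p was 0.359 and the median change 0.76. DESeq2 also passed 0 members. In active pain, 0 of 29 passed and 7 had an unadjusted p under 0.05, against 7.25% of all genes, with a median change of 0.62. Without overlap, 3 members were higher in sedentary pain, against 3.95% of all genes, and 5 in active pain, against 6.34%. Active against sedentary pain gave 0 members passing, 1 at an unadjusted p under 0.05 and a median of -0.12, where 0.840% of all genes had such a p. Of the 29, 5 passed the filter on low counts only through the sedentary pain libraries (Cdk1, Foxm1, Kif11, Kif23 and Nusap1) and 6 only through the active pain libraries (Cdk1, Foxm1, Cdca8, Kif23, Nusap1 and Prc1), so these counts and medians are a description. The 11 members not tested in males were Ccne1, Ccna2, Ccnb1, Ccnb2, Plk1, Aurkb, Bub1, Birc5, Cdc20, Cenpe and Cenpf.

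Among the male libraries, Mcm5, Mcm6, Top2a and Tpx2 lay outside the range of the controls in every pain library, although none passed. Of all genes, 3.95% were higher without overlap in sedentary pain and 6.34% in active pain. The share that did so in both groups and the share that lay lower were not counted, so these genes are a description. Mcm5 stood at 0.853, 1.22, 1.05 and 0.975 CPM in male controls, at 5.85, 1.71, 1.44 and 2.00 CPM in sedentary pain and at 2.15, 4.08, 1.61 and 1.31 CPM in active pain. Both pain groups lay above the controls, with changes of 1.44 ± 0.48 (edgeR, adjusted p = 0.359) and 1.15 ± 0.48 (adjusted p = 0.634). Top2a stood at 0.477, 0.280, 0.271 and 0.283 CPM in controls, at 0.606, 0.569, 0.549 and 2.18 CPM in sedentary pain and at 0.689, 0.640, 0.957 and 2.14 CPM in active pain. It too was above all controls, by 1.59 ± 0.56 (adjusted p = 0.419) and 1.75 ± 0.56 (adjusted p = 0.486). Tpx2 went the other way: it stood at 5.73, 5.59, 3.71 and 5.64 CPM in sedentary pain and at 4.48, 5.64, 5.16 and 3.56 CPM in active pain. Both groups lay below the male controls, by 0.46 ± 0.19 (adjusted p = 0.521) and 0.61 ± 0.19 (adjusted p = 0.478) on the log2 scale. Aurka, at 14.6, 15.7, 16.4 and 13.9 CPM in sedentary pain, lay within the range of its controls in 3 libraries and just below it in replicate 4.

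The female and male changes under sedentary pain were tested against each other and no member passed. Of 37 members tested in the fit of all 24 libraries, 0 passed with edgeR, against 0.0% of all 15103 genes, and 21 had an unadjusted p under 0.05, against 9.57% of all genes. The smallest adjusted p was 0.432. Of the 37, 8 passed the filter on low counts only through the sedentary pain libraries (Ccnb2, Plk1, Aurkb, Birc5, Cdc20, Kif23, Cenpf and Nusap1). Their mean levels in sedentary pain were higher in females, so a female excess was partly built in for them. The counts of members in this paragraph are therefore a description. The female change exceeded the male one by 1.49 ± 0.38 for Tpx2, by 1.75 ± 0.45 for Cdca3, by 2.96 ± 0.82 for Ccna2 and by 2.66 ± 0.76 for Prc1 (adjusted p = 0.432 for each). A difference between the sexes was thus not shown for these genes; a p above the threshold does not show that they responded alike. With only replicates 3 and 4, 9 members passed, against 8.51% of all genes. For active against sedentary pain the sex difference gave 0 members passing, 22 at an unadjusted p under 0.05, against 14.7% of all genes, and a smallest adjusted p of 0.228. For active pain against control it gave 0 members passing and 0 at an unadjusted p under 0.05, against 2.03% of all genes. Without male sedentary pain replicate 1, 11 members passed in the sex difference of active against sedentary pain, against 14.1% of all genes.

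Averaged over both sexes, 30 of 37 members, against 37.4% of all genes, differed between sedentary pain and control, 29 of them higher and 1 lower. At an unadjusted p under 0.05 there were 31, against 50.8% of all genes. Of all genes, 22.5% were higher and 14.9% lower in this comparison. Of the 37, 8 passed the filter only through the sedentary pain libraries and so had to be higher (Ccnb2, Plk1, Aurkb, Birc5, Cdc20, Kif23, Cenpf and Nusap1); of the other 29, 22 passed. The one that fell was Rrm1. It stood at 39.9, 42.5, 35.5 and 40.5 CPM in male controls and at 22.0, 39.4, 34.7 and 34.6 CPM in male sedentary pain, and its mean change over the sexes was -0.32 ± 0.11 (adjusted p = 0.0283). That call was lost in 9 of 36 alternatives, among them without female sedentary pain replicate 2 or 4, male sedentary pain replicate 1, or replicate 2 of either control group. With only replicates 1 and 2, no member passed in this comparison with edgeR. Averaged active pain against control gave 0 of 37 members, against 0.0331% of all genes, with 14 at an unadjusted p under 0.05, against 15.5%. DESeq2 gave 3 members, against 3.34% of all genes. Averaged active against sedentary pain gave 0 of 37, against 0.0%, with 31 at an unadjusted p under 0.05, against 21.7%. The same 8 members were tested only through sedentary pain and so had to be lower here; of the other 29, 23 were among the 31. DESeq2 gave 15 members, against 8.36% of all genes, and edgeR gave 20 without female sedentary pain replicate 1, against 12.5%, and 17 without replicate 2, against 4.9%. Members tested only through sedentary pain made up 3 of the 15, 2 of the 20 and 2 of the 17.

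Set side by side library by library, the helicase genes and the mitotic pair Mki67 and Top2a did not always move together. The libraries named in this paragraph were picked after their values were seen, and nothing was tested between them. In male sedentary pain replicate 1 the 7 helicase genes summed to 64.5 CPM (1599 reads, exact Poisson 95% interval 61.4 to 67.8), which is 1.99 times the mean of male controls. The sum of Mki67 and Top2a in that library was 1.13 CPM (28 reads, interval 0.751 to 1.63), within the male controls' range of 0.597 to 1.33 CPM. Its Pcna stood at 32.9 CPM, against 13.7 to 15.5 CPM in male controls, and its E2f1 at 2.66 CPM, against 0.477 to 0.909 CPM. Over the wider lists, 10 of the 15 genes of S phase and 13 of the 25 genes of G2 and mitosis stood above all 4 male controls in that library, where 41.7% of all genes tested in males did so.

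Male sedentary pain replicate 4 was high in the mitotic pair. Its helicase sum was 35.1 CPM (966 reads, interval 33.0 to 37.4), 1.08 times the control mean. Its sum of Mki67 and Top2a was 5.64 CPM (155 reads, interval 4.79 to 6.60), 6.69 times the control mean. Of the 25 genes of G2 and mitosis, 21 stood above all 4 male controls there, and 7 of the 15 genes of S phase, where 18.0% of all genes tested in males did so. Male active pain replicate 4 was alike, with a helicase sum of 33.9 CPM and a sum of Mki67 and Top2a of 4.67 CPM, 5.54 times the control mean. Male active pain replicate 2 had a helicase sum of 47.1 CPM, 1.45 times its control mean, and 0.840 CPM of the mitotic pair.

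Among the female libraries, sedentary pain replicate 2 had 1.88 times the control mean of the helicase sum and 3.19 times that of the mitotic pair. Replicate 1 had less of the first, 1.52 times, and more of the second, 7.36 times. Replicates 3 and 4 were high in both, with 2.18 and 2.89 times the helicase sum and 26.1 and 35.8 times the sum of Mki67 and Top2a. The order of the 4 libraries by helicase genes was therefore not their order by the mitotic pair.

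**Figure D4:**
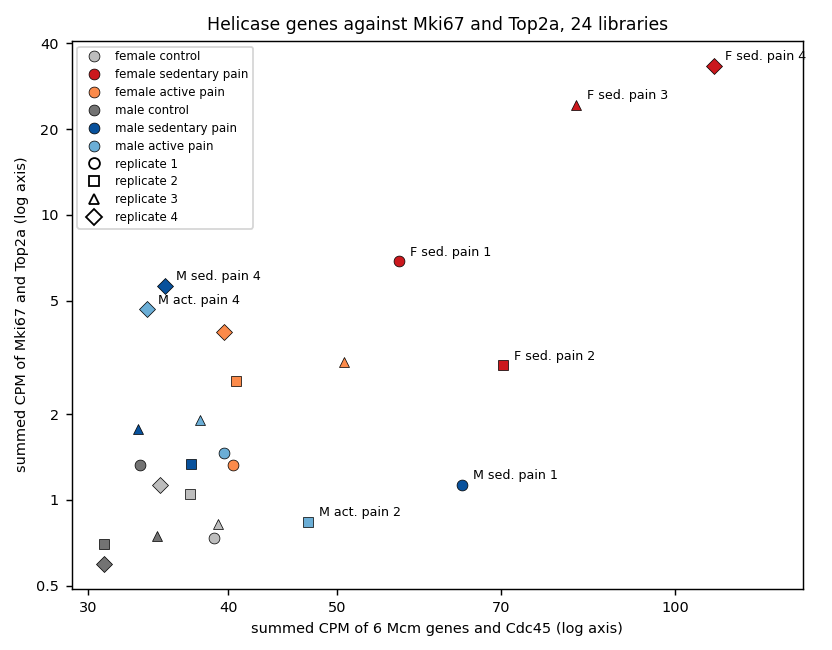
Summed CPM of the 6 Mcm genes and Cdc45 (x, log axis) against the summed CPM of Mki67 and Top2a (y, log axis) for the 24 libraries, by group (colour) and replicate (shape). Male sedentary pain replicate 1 lies to the right at the controls' height, male sedentary and active pain replicates 4 lie above the controls at their x, and female sedentary pain replicates 3 and 4 lie far from all others in both.

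Markers of leukocytes differed between the same libraries. Male sedentary pain replicate 1 had a sum of 8 neutrophil markers of 300.2 CPM, against 0.699 to 7.39 CPM in male controls and 2.62 to 2.71 CPM in the other male sedentary pain libraries, and 959 CPM of macrophage markers. Male sedentary pain replicate 4 had 2.69 CPM of neutrophil markers and 558 CPM of macrophage markers, against 75.7 to 169 CPM in male controls. Female sedentary pain replicate 2 had the second highest neutrophil sum, 258 CPM, and female active pain replicate 3 and male active pain replicate 2 followed with 113 and 78.8 CPM. Female sedentary pain replicates 3 and 4 had 40.1 and 57.3 CPM of neutrophil markers beside their macrophage sums of 4548 and 6702 CPM. The granulocyte precursor markers Mpo, Elane, Prtn3 and Ctsg, which mark the dividing stages of neutrophils, summed to 2.99 CPM in male sedentary pain replicate 1 and to at most 1.87 CPM in all other libraries. Of these, Ctsg was at 0 in all 4 male sedentary pain libraries. In female sedentary pain the B cell marker Cd79b passed as higher, against 19.6% of all genes, as did Cd79a, which was tested only through those libraries and so had to be higher. Together 7 such markers summed to 0.794 to 11.9 CPM, highest in replicates 3 and 4, against 0.390 to 1.53 CPM in female controls. Of 4 markers of lymph node stroma, Ccl21a was at 0 in every library and Cxcl13, the 1 tested, was higher by 2.20 ± 0.52 (edgeR, adjusted p = 0.0108) and differed by -1.80 ± 0.51 in active against sedentary pain (adjusted p = 0.0431). The 4 summed to 0.934 to 5.02 CPM in female sedentary pain and to 0.260 to 1.22 CPM in female controls. The part of these cell types in the cell cycle genes was not tested.

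**Figure D5:**
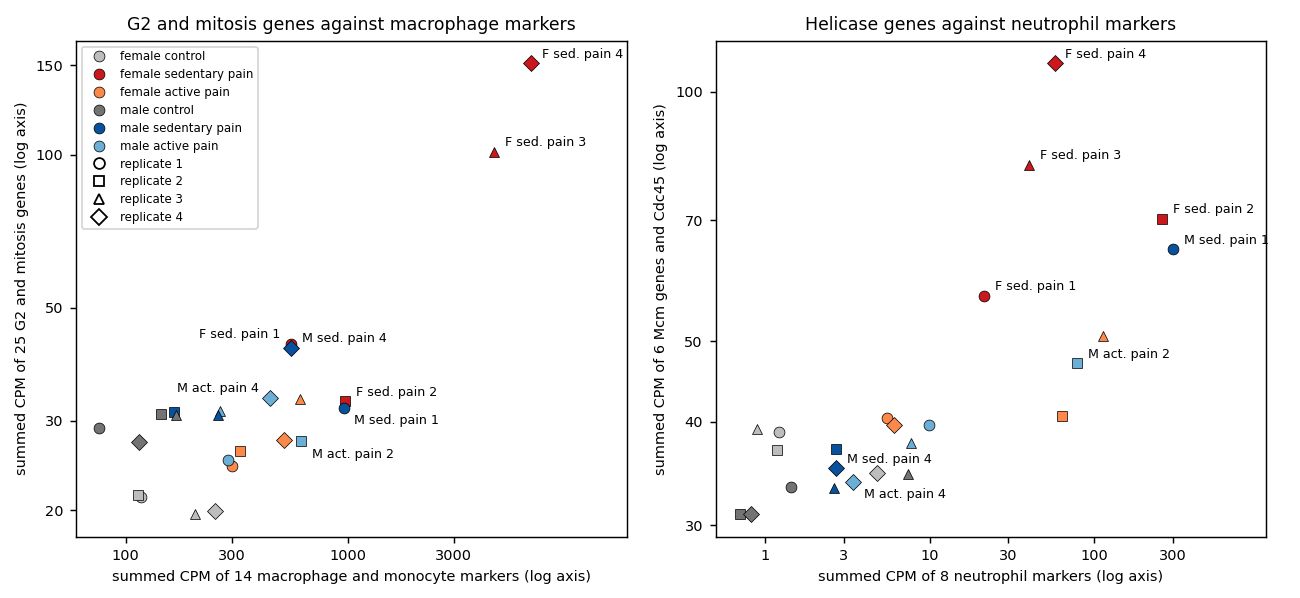
Left, the summed CPM of the 25 G2 and mitosis genes against that of 14 macrophage and monocyte markers; right, the summed CPM of the helicase genes against that of 8 neutrophil markers, for 24 libraries on log axes. On the left female sedentary pain replicates 3 and 4 lie apart from all others at the top right; on the right female sedentary pain replicate 2 and male sedentary pain replicate 1 have the highest neutrophil sums, 258 and 300.2 CPM, below replicates 3 and 4 of female sedentary pain in helicase genes.

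Other genes of the same pathways are described by list, to be read in female sedentary pain against the 19.6% of all genes that were higher and the 13.9% that were lower. Of 33 other genes of replication and S phase, 30 were tested, 16 were higher and 0 lower, with a median of 0.83. Among those tested, 7 passed the filter only through the sedentary pain libraries, and 9 of the other 23 were higher. Cdt1, which loads the MCM ring onto DNA, rose by 3.83 ± 0.49 (adjusted p = 0.00251), Uhrf1, which keeps DNA methylation through replication, by 3.82 ± 0.46 (adjusted p = 0.00225), and Lig1, the ligase of the lagging strand, by 2.33 ± 0.40 (adjusted p = 0.00315). Clspn, claspin of the replication checkpoint and 1 of the 7, was higher by 3.95 ± 0.66 (adjusted p = 0.00300). Cdt1 stood at 0.168 to 0.586 CPM in controls and at 3.10 to 9.57 CPM in sedentary pain, and in male sedentary pain it ranged from 0.401 to 17.3 CPM. Of 46 other genes of G2 and mitosis, 26 were tested and 19 were higher, with a median of 1.55. Of these 26, 5 passed the filter only through the sedentary pain libraries, Pbk and Cks2 among them, and 14 of the other 21 were higher. Kif22, a motor on chromosome arms, rose by 3.54 ± 0.51 (adjusted p = 0.00261) and the chromatin protein Hmgb2 by 2.47 ± 0.49 (adjusted p = 0.00506). The Cdk-binding protein Cks2 was higher by 3.30 ± 0.55 (adjusted p = 0.00302) and the mitotic kinase Pbk by 5.28 ± 0.99 (adjusted p = 0.00411).

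Of 8 genes of D-type cyclins, their kinases and activating E2F factors, which set the decision to divide, all were tested and 6 were higher, against 19.6% of all genes, with a median of 0.97 and a lowest change of -0.38. Ccnd1, cyclin D1, stood at 6.02 to 8.71 CPM in controls and at 14.1 to 28.3 CPM in sedentary pain, a rise of 1.54 ± 0.24 (adjusted p = 0.00261). Cdk4 rose by 0.97 ± 0.18 (adjusted p = 0.00410), Cdk6 by 1.88 ± 0.40 (adjusted p = 0.00693) and Cdk2 by 0.97 ± 0.21 (adjusted p = 0.00753).

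Brakes of the cycle were found in both directions. Of 20 genes of inhibitors, pocket proteins, repressing E2F factors and arrest, 19 were tested, 9 were higher, against 19.6% of all genes, and 5 lower, against 13.9%, with a median of 0.52. E2f8, a repressor that is itself made in S phase, was higher by 3.65 ± 0.64 (adjusted p = 0.00327) but, like E2f7, passed the filter only through the sedentary pain libraries. Both are counted among the higher genes. Of the other 17, 12 passed in either direction, against 33.5% of all genes. Higher were also Trp53, the gene of p53, by 0.95 ± 0.14 (adjusted p = 0.00261) and Btg2, an antiproliferative p53 target, by 1.22 ± 0.26 (adjusted p = 0.00707). Lower was Cdkn1c, the inhibitor p57, which stood at 10.3 to 15.4 CPM in controls and at 6.92 to 8.85 CPM in sedentary pain and changed by -0.83 ± 0.16 (adjusted p = 0.00521). In male sedentary pain none of the 25, 20, 8 and 17 genes tested in these 4 lists passed with edgeR, and 4, 4, 2 and 1 had an unadjusted p under 0.05, against 8.84% of all genes.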

How the data were processed

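Gastrocnemius RNA of 24 samples was sequenced, per the labels' protocols, from 0.5 µg of total RNA with an Illumina TruSeq stranded kit on a NovaSeq, with paired reads. The authors deposited whole-number read counts per Ensembl gene, with no normalization. The submitters' processing notes name HISAT2 2.1.0, Salmon 0.9.1, featureCounts, DESeq2 1.24.0, mm10 and GRCm38.p6, without their roles. The use of strand in counting is not given in the sources used here.

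From these counts, each sex was fitted on its 12 samples, and sex differences, means of both sexes and control muscle on all 24, with edgeR 4.0.16 (R 4.3.3, limma 3.58.1; TMM factors, filterByExpr with a minimum of 10 counts, robust quasi-likelihood test, two-sided, Benjamini-Hochberg over all genes tested, threshold 0.05). Changes are log2 with their SE. Totals of 17612139 to 34039699 reads per sample set the precision. Samples were grouped by their titles. The script was tested on simulated data. Positions are from GENCODE M21 and promoters from RefSeq.

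The members and lists were chosen with earlier results of these data known. Members with values in every sample are, per role, the most abundant and the one with the smallest p in female sedentary pain, 7 standard markers, those with the 2 largest and 2 smallest changes, and those passing in males, in active pain against control or in a sex difference; other members complete their role group. Up to 4 genes per further list were named by smallest p. Alternatives were other scaling, DESeq2 1.42.0, filters, sample sets, replicate and library-number terms, a surrogate variable (sva 3.50.0) and each sample left out.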

Additional observations from a re-analysis of the deposited data

Results flagged for a closer look

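In 13 of 126 groups of 4 libraries examined, the highest or lowest library stood apart from the others by more than the 95% critical value of Dixon's ratio; chance flags about 5% of groups. In male sedentary pain, replicate 1 had 5.85 CPM of Mcm5 (others 1.44 to 2.00) and 32.9 CPM of Pcna (others 14.1 to 15.7). Replicate 4 of that group had 2.18 CPM of Top2a (others 0.549 to 0.606) and a sum of 41.8 CPM over the G2 and mitosis genes (others 30.7 to 31.8). Replicate 3 of it was lowest in Tpx2, at 3.71 CPM (others 5.59 to 5.73). In male active pain, replicate 4 had 0.831 CPM of Ccna2 (others 0.239 to 0.258).

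In male controls, replicate 1 had 15.5 CPM of Pcna (others 13.7 to 13.9) and 0.477 CPM of Top2a (others 0.271 to 0.283), replicate 2 had 16.5 CPM of Aurka (others 13.9 to 14.2) and replicate 4 had 2.45 CPM of Ube2c (others 1.73 to 1.81). In female controls, replicate 1 had 4.29 CPM of Tpx2 (others 2.81 to 2.90). In female active pain, replicate 3 had a sum of 154 CPM over all members (others 131 to 135) and of 121 CPM over the S phase genes (others 107 to 109).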

How the results depend on the processing

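Counts are of members passing. In female sedentary pain against control (29) they were 12 of 18 tested with a mean of at least 50 counts, 1 with a surrogate variable, 2 with replicates 1 and 2 only and 24 to 33 leaving out 1 library. In female active against sedentary pain (21) they were 8 with no filter, 10 with a mean of at least 50 counts, 0 with a surrogate variable, 0 with only the 2 groups compared, 0 with replicates 1 and 2, 32 with replicates 3 and 4, and 0 to 32 leaving out 1 library. Female active pain against control (0) gave 1 with DESeq2. For the mean of both sexes, sedentary pain against control (30) gave 11 with a mean of at least 50 counts, 0 with replicates 1 and 2 and 28 to 33 leaving out 1 library. Active pain against control (0) gave 3 with DESeq2, 1 with the GC and length correction and replicate block, and 0 to 2 leaving out 1 library (2 without male sedentary pain replicate 1). Active against sedentary pain (0) gave 15 with DESeq2, 12 with replicates 3 and 4 and 0 to 20 leaving out 1 library. Sex differences (0) gave 9 for sedentary pain against control (8.51% of all genes) and 8 for active against sedentary pain (7.71%) with replicates 3 and 4, and 0 to 1 and 0 to 11 leaving out 1 library. Male against female controls (2) gave 0 with replicates 1 and 2 and 1 to 2 leaving out 1 library. Log2 changes turned for Aurka in female sedentary pain, to -0.191 with a surrogate variable, -0.377 with the GC and length correction, -0.342 with that and the replicate block, and -0.259 with replicates 1 and 2, and ranged from -0.0297 to 0.178 leaving out 1 library. They turned for Ccne2 (0.283) with a surrogate variable and Mcm2 (-0.100) with replicates 1 and 2. In female active against sedentary pain they turned for Ube2c (0.0210) with a surrogate variable and for Aurka, to -0.111 with replicates 3 and 4, with a range of -0.0704 to 0.135 leaving out 1 library. The cause was not tested. The replicate subsets and the GC and length correction were chosen after seeing the data. Of single named members, Tpx2 lost its call in 10 and Ube2c in 8 of 26 alternatives in female sedentary pain, the others in 0 to 2; in active against sedentary pain Cdca3 lost it in 14 of 25, Mki67 in 10 of 26 and the others in 8 or 9; for the mean of both sexes Rrm1 lost it in 9, Ube2c in 5 and the others in 1 of 36 or 35. Calls were gained by Cdk1 in 9 of 25, Tpx2 in 4, Ube2c in 3 and Ccne2 in 1 of 26 in active against sedentary pain, and by Rrm1 in 3 and Ccne2 in 1 of 26 in female sedentary pain. A term for library number gave 30 in female sedentary pain and 24 in active against sedentary pain. Same-numbered samples correlated from -0.0789 to 0.349 in female sedentary pain against control, 0.0565 to 0.394 in female active pain against control (5 of 8 best with their own number), -0.305 to 0.166 in female active against sedentary pain, and -0.652 to 0.574 over the male comparisons; in none was every pair above 0.1, so the numbers were not taken to pair samples; the replicate block gave 28 there, 22 for active against sedentary pain, and 30 for the mean of both sexes in sedentary pain. Low counts kept 4 members untested in females and 11 in males.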
